A study of Mus musculus with 32 samples.

Results

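CHD4 binding was compared between B3 cells 30 min after 4-hydroxytamoxifen (4-OHT) and untreated B3 cells (0 h), with 2 replicates at each time. B3 is a mouse pre-B cell line, originally derived from a lymphoma, that had been transduced with a retrovirus carrying HA-tagged Ikaros joined to the ERt2 domain, and all cells compared here carried this construct. The ERt2 domain moves the fusion protein into the nucleus when 4-OHT, here at 500 nM, is added, so that the 0 h cells are uninduced rather than free of the construct. The 4 CHD4 peak lists were merged wherever peaks overlapped by at least 1 bp, which gave 8463 regions. A region was gained when both 30 min lists and neither 0 h list called a CHD4 peak there, lost in the reverse case, and kept when all 4 lists called it. There were 241 gained regions (2.85% of the 8463), 352 lost regions (4.16%) and 1016 kept regions (12.0%), and the remaining 6854 regions were called in some other combination of libraries.

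CHD4 is the ATP-dependent remodelling subunit of NuRD, a complex that joins nucleosome remodelling to histone deacetylation. Ikaros (IKZF1) is a zinc finger transcription factor of lymphoid cells that binds DNA at sites with a GGGAA core and is known to recruit NuRD, and loss of its function is frequent in B cell leukaemia. H3K27ac, acetylated lysine on the tail of histone H3, marks active enhancers and promoters and is a substrate of the deacetylases in NuRD. The comparison addresses where CHD4 changes in the earliest interval after Ikaros enters the nucleus.

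Reference sequence is shown for the gained and lost regions of highest CHD4 fold that also held an HA-Ikaros peak in both replicates of the time at which CHD4 was called, since these are the places where CHD4 and Ikaros calls can be followed together. Each line gives 101 bases (mm10, plus strand) centred on the summit of the strongest HA-Ikaros peak in the region, with the GGGAA core, or TTCCC where it lies on the other strand, in capitals. The gained regions are named by the nearest protein-coding transcription start site (TSS), and lay in intergenic DNA near Ndrg3 (chr2:156918678-156918778), Il12a (chr3:68677086-68677186) and Lyrm9 (chr11:78820568-78820668) and in an exon of the transcript AC137853.2 beside the TSS of Dusp5 (chr19:53528858-53528958).

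Ndrg3, gained: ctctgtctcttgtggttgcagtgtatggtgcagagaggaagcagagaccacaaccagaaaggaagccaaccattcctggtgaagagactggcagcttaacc
Il12a, gained: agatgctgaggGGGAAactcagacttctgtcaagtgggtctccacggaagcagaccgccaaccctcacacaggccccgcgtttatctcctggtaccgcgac
Dusp5, gained: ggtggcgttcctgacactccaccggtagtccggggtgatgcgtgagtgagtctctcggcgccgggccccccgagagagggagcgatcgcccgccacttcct
Lyrm9, gained: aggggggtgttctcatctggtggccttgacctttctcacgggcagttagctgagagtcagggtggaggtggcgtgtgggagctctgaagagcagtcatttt

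The lost regions lay in intergenic DNA near Prdm10 (chr9:31266251-31266351) and Cep78 (chr19:16015820-16015920), in an intron of Atxn7l1 (chr12:33325470-33325570) and in an exon of Flt3 (chr5:147363171-147363271).

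Prdm10, lost: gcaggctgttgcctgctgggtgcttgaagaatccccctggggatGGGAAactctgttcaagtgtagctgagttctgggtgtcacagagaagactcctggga
Atxn7l1, lost: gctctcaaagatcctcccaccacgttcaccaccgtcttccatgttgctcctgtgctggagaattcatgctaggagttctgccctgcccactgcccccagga
Flt3, lost: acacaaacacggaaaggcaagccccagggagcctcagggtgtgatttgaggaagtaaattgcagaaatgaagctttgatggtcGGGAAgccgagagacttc
Cep78, lost: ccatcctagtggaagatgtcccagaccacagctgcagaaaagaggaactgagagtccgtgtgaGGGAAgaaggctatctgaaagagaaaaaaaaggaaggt

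The core was present in the window near Il12a and absent from those near Ndrg3, Dusp5 and Lyrm9, and it was present in the windows near Prdm10, Flt3 and Cep78 and absent from that of Atxn7l1. The next window of each class by the same choice, not printed, held the core at Cxcr4 (gained) and lacked it near Nek6 (lost). The paper's own motif count used shorter words that lie within this core, on either strand. The windows near Ndrg3, Dusp5, Lyrm9 and Nek6 and that of Atxn7l1 lacked the whole core but each held such a shorter word. They thus did not lack an Ikaros motif as the paper counted it. Windows this few cannot tell whether the core separates gained from lost regions. The shares of short words over all members of each class are given last.

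The CHD4 lists held 2488 and 6000 peaks at 0 h and 4081 and 3369 peaks at 30 min. Peak number did not differ between the times beyond the spread of the replicates, at 4244 ± 2483 (SD, n = 2) for 0 h and 3725 ± 503 for 30 min (exact two-sided permutation p = 1.00). By the class rule, lost and kept regions had to be called in the shorter 0 h list, and gained regions had to be absent from the longer one. With lists of equal size there were 266 gained, 287 lost and 433 kept regions. Median peak width was 562 and 763 bp at 0 h and 645 and 664 bp at 30 min, and these ranges overlapped as well (exact permutation p = 1.00). With 2 libraries against 2, the smallest p that this test can give is 0.333, so no comparison of libraries here could reach significance, and the lowest value after Benjamini-Hochberg adjustment over the 10 tests made was 0.556. As a check of the cell type, 11 of 12 pre-B markers, among them Cd79a, Pax5 and Ebf1, had an H3K27ac peak within 1 kb of a TSS in all 4 H3K27ac lists. The same was true of 1 of 7 T cell markers (Cd3d), of 1 of 4 erythroid markers (Klf1), and of 0 of 5 myeloid and 0 of 4 fibroblast markers.

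Gained and lost regions were few beside the disagreement between replicates. Of the 8463 regions, 4561 (53.9%) were called in 1 library alone, and 2449 of these in 0 h replicate 2 alone. Among the regions called in exactly 2 libraries, 241 were shared by the 30 min libraries and 352 by the 0 h libraries. In comparison, 584 were shared by 0 h replicate 2 and 30 min replicate 1, 427 by the replicate 2 libraries, 82 by the replicate 1 libraries and 43 by 0 h replicate 1 and 30 min replicate 2. The counts for pairs of libraries from the same time thus lay inside the range for pairs from different times. Of the peaks of 30 min replicate 1, 46.9% overlapped a peak of 30 min replicate 2 and 62.9% overlapped a peak of 0 h replicate 2, the longest list. The number of gained or lost regions alone therefore did not separate a change with time from variation between libraries, and measures that the CHD4 calls did not use are given below.

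**Figure D1:**
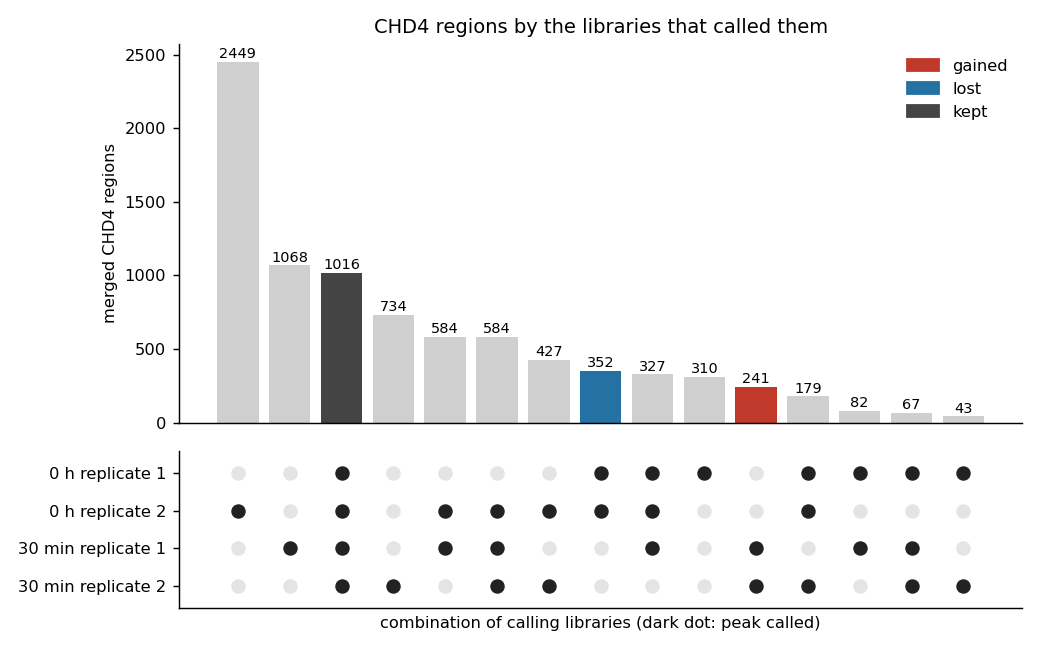
Number of merged CHD4 regions (bars) for each combination of the 4 CHD4 libraries that called a peak (dark dots). The 241 gained regions (red) and 352 lost regions (blue) are fewer than the 584 regions shared by 0 h replicate 2 and 30 min replicate 1 alone, and the 1016 kept regions (dark grey) form the third tallest bar.

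Gained and lost regions were of middling enrichment. Their median widths were 900 bp and 905 bp, against 780 bp for all regions and 2080 bp for kept regions, which join peaks of 4 lists and so are wider by construction. The median percentile rank of the CHD4 fold within its list, where 100 is the strongest peak, was 48.8 and 49.6 for gained regions in the 30 min libraries and 43.3 and 57.2 for lost regions in the 0 h libraries. Kept regions ranked higher, with medians from 60.4 to 71.2 over the 4 libraries. Gained peaks had a median −log10 q of 1.93 and 1.78, with the weakest at 1.10 and 1.04, where the lists themselves ended at 1.04 and 1.01. Lost peaks had medians of 1.90 and 1.85 and began at 1.18 and 1.12, in lists that ended at 1.07 and 1.01. Many members thus sat close to the threshold of the peak caller, and a region called absent at the other time can hold signal just below it. A CHD4 peak of the other time lay within 1 kb of 25 gained regions (10.4%) and 25 lost regions (7.1%). The smallest fold among gained regions, 1.19 and 1.11, stood beside −log10 q values of 417 and 178 at chr2:98666706-98667141, the place of the predicted gene Gm10800, and the widest kept region, 28945 bp at chr9:3009303-3038247, had similarly low folds of 1.24 to 1.54. Such places stand apart from the other members, and 45 kept regions, no gained region and no lost region exceeded 5000 bp.

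Gained regions lay at promoters, within 1 kb of a TSS, in 104 of 241 cases (43.2%, exact binomial 95% interval 36.8 to 49.7%). The share was 31.5% for lost regions (26.7 to 36.7%), 32.4% for kept regions (29.5 to 35.4%) and 39.8% for all regions (38.7 to 40.8%). The interval of the gained regions thus contained the value of all regions, while the lost and kept intervals lay below it. Over whole lists, 30.7 and 36.3% of CHD4 peaks were at promoters at 0 h and 39.5 and 34.7% at 30 min, and these ranges overlapped (exact permutation p = 0.667, adjusted p = 0.833). The difference of 3.61 percentage points was 0.790 without 0 h replicate 1, 6.42 without 0 h replicate 2, 1.24 without 30 min replicate 1 and 5.97 without 30 min replicate 2. The centre of the region was intronic for 48.1% of gained, 47.4% of lost and 44.2% of kept regions, against 46.4% of all regions. It was intergenic for 32.4%, 39.5% and 46.3%, against 40.5% of all regions. A UTR held the centre of 9.96% of gained regions (6.49 to 14.5%) and 3.98% of lost regions (2.19 to 6.58%), against 6.76% of all regions, a value inside the interval of the gained regions. These intervals treat regions as the unit and cover counting error only, not the spread between cultures.

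HA-Ikaros peaks were more frequent at lost than at gained regions at 0 h and less frequent at 30 min. At 0 h, before 4-OHT, 52.3 and 55.2% of gained regions held an HA-Ikaros peak in replicates 1 and 2, close to the 47.0 and 54.8% of all CHD4 regions. Lost regions stood higher at that time, at 65.1 and 74.4%. At 30 min the order was reversed, with 76.8 and 60.6% of gained and 53.1 and 38.6% of lost regions, while all regions were at 55.1 and 39.9%. Kept regions held an HA-Ikaros peak most often, in 81.4 and 84.9% at 0 h and 89.7 and 82.5% at 30 min. HA-Ikaros was therefore on most kept regions before 4-OHT as well as after it. Kept regions were also wider, at a median of 2080 bp against 780 bp for all regions, and an overlap of 1 bp was counted. The bearing of width on these and later shares of kept regions was not tested.

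The share of gained minus that of lost regions, taken within each HA-Ikaros list so that the length of the list affects both, was −12.8 and −19.2 percentage points at 0 h and 23.6 and 21.9 at 30 min. The difference between times was 38.8 points, larger than the spread of the replicates (SD 4.58 and 1.2, n = 2 each) and with no overlap of the groups, at the smallest p the design allows (exact permutation p = 0.333, adjusted p = 0.556). This measure was added after the data had been seen. When 1 CHD4 library was left out of the classes, the difference was 29.8 points without 0 h replicate 1, 27.9 without 0 h replicate 2, 25.6 without 30 min replicate 1 and 21.9 without 30 min replicate 2, and kept its sign each time. HA-Ikaros, CHD4 and H3K27ac lists of a given time may have been called against the same input library, so that a difference in the input and a difference in binding cannot be told apart.

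**Figure D2:**
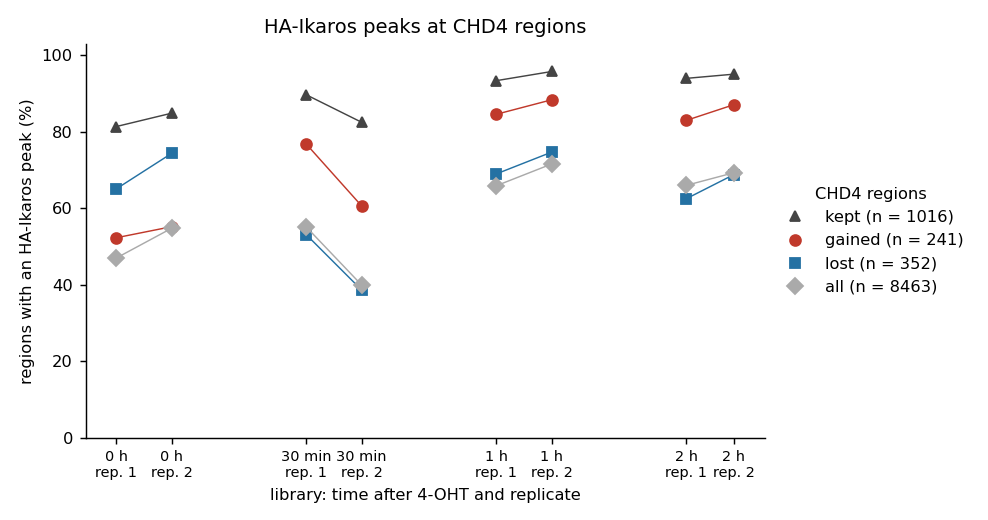
Share of CHD4 regions (%) that held an HA-Ikaros peak in each HA-Ikaros library, by time after 4-OHT, with replicates joined by a line. Lost regions (blue squares) lie above gained regions (red circles) in both 0 h libraries and below them in all 6 libraries from 30 min on.

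With HA-Ikaros required in both 30 min lists, the share was 54.4% for gained regions (exact binomial 95% interval 47.8 to 60.8%), 28.1% for lost regions (23.5 to 33.1%) and 79.5% for kept regions (76.9 to 82.0%), against 33.5% of all regions. A gap of similar size was present at promoters, at 51.0% of 104 gained and 27% of 111 lost regions, and at distal places, at 56.9% of 137 gained and 28.6% of 241 lost regions. HA-Ikaros in both 30 min lists and neither 0 h list was found at 30 gained regions (12.4%), 9 lost regions (2.56%) and 38 kept regions (3.74%), against 3.44% of all regions. HA-Ikaros in both 0 h lists and neither 30 min list was found at 3 gained regions (1.24%) and 51 lost regions (14.5%), against 5.10% of all regions. HA-Ikaros was in both 0 h lists at 105 gained regions (43.6%), 218 lost regions (61.9%) and 789 kept regions (77.7%), against 41.5% of all regions. It was in no list of either time at 32 gained regions (13.3%), 53 lost regions (15.1%) and 54 kept regions (5.31%), against 27.6% of all regions. The level of these shares depended on how many CHD4 libraries defined a class. Without 30 min replicate 1, the share in both 30 min lists was 27.2% for gained and 37.7% for lost regions, and without 30 min replicate 2 it was 27.3 and 35.7%, so that the order of the classes turned when gained regions rested on 1 library. Without 0 h replicate 1 it was 56.4 and 14.2%, and without 0 h replicate 2 it was 63.3 and 19.0%.

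The comparison was also made from the side of Ikaros, a choice made after the data had been seen. Of 14680 merged HA-Ikaros regions at 0 h and 30 min, 502 were new at 30 min (both 30 min and neither 0 h list), 1385 were absent at 30 min (the reverse) and 2546 were in all 4 lists. CHD4 peaks lay on 17.7 and 41.2% of the new HA-Ikaros regions at 0 h and on 41.6 and 35.9% at 30 min. Over all 14680 HA-Ikaros regions the shares were 15.4 and 35.1% at 0 h and 25.5 and 20.5% at 30 min, so that new regions lay near the level of all regions at 0 h and above it at 30 min. The values of new regions overlapped between times, and the higher 0 h value came from replicate 2, the longest CHD4 list of this comparison. At HA-Ikaros regions absent at 30 min, CHD4 peaks lay on 8.45 and 30.0% at 0 h and on 7.22 and 4.77% at 30 min, below all regions in each of the 4 lists. The share at new minus that at absent regions was 9.28 and 11.3 percentage points in the 0 h CHD4 lists and 34.4 and 31.1 points in the 30 min lists, a difference of 22.5 points without overlap (SD 1.41 and 2.35, exact permutation p = 0.333, adjusted p = 0.556). The gap was still present at 1 h, with 48.8 and 47.0% at new and 11.6 and 8.45% at absent regions. At 2 h the shares were 36.9 and 67.5% at new and 6.86 and 21.7% at absent regions. All regions were at 31.9 and 27.6% at 1 h and at 22.1 and 45.2% at 2 h. HA-Ikaros regions in all 4 lists held CHD4 in 40.5 and 66.3% at 0 h and 61.0 and 52.2% at 30 min, which overlapped.

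Over whole lists, the share of CHD4 peaks at HA-Ikaros regions of 30 min was 50.5 and 36.1% at 0 h and 48.6 and 51.1% at 30 min (exact permutation p = 0.667, adjusted p = 0.833). The difference of 6.54 percentage points rested on 0 h replicate 2, since without it the 30 min value was lower by a small margin, at −0.668 points, and without 0 h replicate 1 it was 13.7 points.

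H3K27ac was present at most CHD4 regions of each class, and its rank differed between the classes and times. A peak in both 30 min H3K27ac lists was found at 95.0% of gained, 91.5% of lost and 96.2% of kept regions, against 88.3% of all regions. The exact binomial 95% interval of kept regions (94.8 to 97.3%) lay above that of lost regions (88.1 to 94.2%). Kept regions were wider than lost ones, at a median of 2080 bp against 905 bp, which this comparison did not take into account. H3K27ac was called in both 0 h lists and in neither 30 min list at 0 gained, 2 lost and 0 kept regions, and at 18 of all 8463 (0.213%). Over whole lists, 92.3 and 91.1% of CHD4 peaks at 0 h and 92.9 and 92.5% at 30 min lay on H3K27ac regions of 30 min, a difference of 0.990 percentage points without overlap (exact permutation p = 0.333, adjusted p = 0.556). It was 0.379 points without 0 h replicate 2 and 1.60 without 0 h replicate 1. The times overlapped without 0 h replicate 2 or either 30 min replicate, with CHD4 peaks of a fold of at least 3 (1.29 points) and with an overlap of 50% of the shorter interval (1.13 points), each at an exact permutation p of 0.667.

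The rank of the H3K27ac fold was taken among 16795 H3K27ac regions called in all 4 lists. At lost CHD4 regions the mean percentile rank was 62.1 and 61.3 at 0 h and 50.4 and 51.2 at 30 min, over 323 H3K27ac regions. At gained CHD4 regions it was 64.6 and 62.4 at 0 h and 65.6 and 65.9 at 30 min, over 224 H3K27ac regions. H3K27ac at lost regions thus stood 10.9 points lower at 30 min, while at gained regions it was 2.24 points higher. At kept regions the mean rank was 78.5 and 76.8 at 0 h and 74.8 and 75.1 at 30 min, a difference of −2.73 points, and at H3K27ac regions away from these classes the difference was 0.358 points. The rank at gained minus that at lost regions was 2.51 and 1.11 at 0 h and 15.2 and 14.7 at 30 min, a difference of 13.1 points without overlap of the times (SD 0.988 and 0.407, n = 2 each, exact permutation p = 0.333, adjusted p = 0.556). That difference was added after the data had been seen, and without 1 CHD4 library it ranged from 7.21 to 11.4 points. The smallest of these values came without 0 h replicate 1, and without 0 h replicate 2 it was 7.74. The rank at gained minus that at kept regions was −13.9 and −14.4 at 0 h and −9.14 and −9.23 at 30 min, a difference of 4.97 points without overlap (exact permutation p = 0.333, adjusted p = 0.556).

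**Figure D3:**
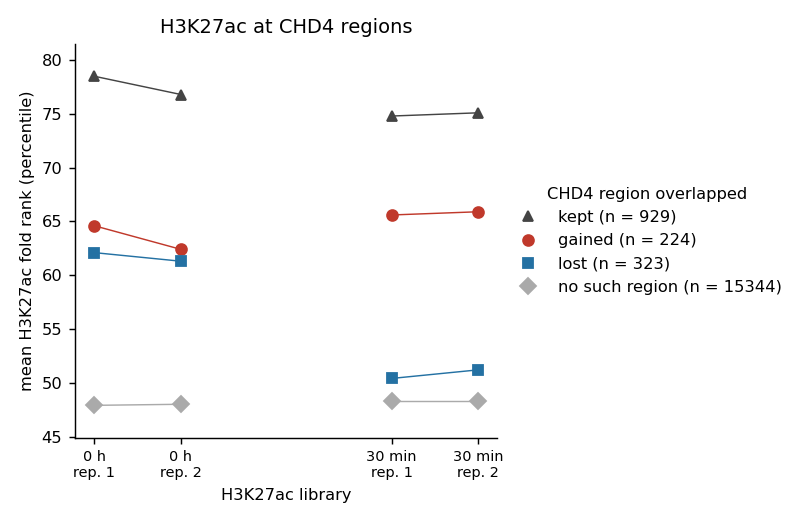
Mean percentile rank of the H3K27ac fold (vertical axis, which does not start at 0) at H3K27ac regions that overlap kept, gained or lost CHD4 regions or none of these, in each H3K27ac library of 0 h and 30 min, with replicates joined by a line. Lost regions (blue squares) move from 62.1 and 61.3 to 50.4 and 51.2, and gained regions (red circles) from 64.6 and 62.4 to 65.6 and 65.9.

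CHD4 lists of 1 h and 2 h, which took no part in the definition of the classes, called gained regions more often than lost regions in each of the 4 libraries. At 1 h, a CHD4 peak was found on 63.5 and 57.3% of gained and 47.2 and 36.9% of lost regions. At 2 h the shares were 39.8 and 79.3% for gained and 22.4 and 55.7% for lost regions. Kept regions were called again in 94.2 and 89.3% at 1 h and 76.6 and 96.4% at 2 h, and all regions in 47.7, 42.9, 33.9 and 63.2%. The variation between the 2 h replicates, whose lists held 5523 and 9593 peaks, was larger than the gap between gained and lost regions. All 4 later lists called 41 gained regions (17.0%), 35 lost regions (9.94%) and 695 kept regions (68.4%), against 18.8% of all regions. The gained share thus lay close to that of all regions and the lost share below it. None of the later lists called 18 gained regions (7.47%), 96 lost regions (27.3%) and 4 kept regions (0.394%), against 23.7% of all regions. HA-Ikaros peaks followed the same order, on 84.6 and 88.4% of gained and 69.0 and 74.7% of lost regions at 1 h, and on 83.0 and 87.1% and 62.5 and 68.8% at 2 h. Over all regions the HA-Ikaros shares were 65.9 and 71.6% at 1 h and 66.0 and 69.3% at 2 h, so that lost regions lay near the level of all regions and gained regions above it.

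**Figure D4:**
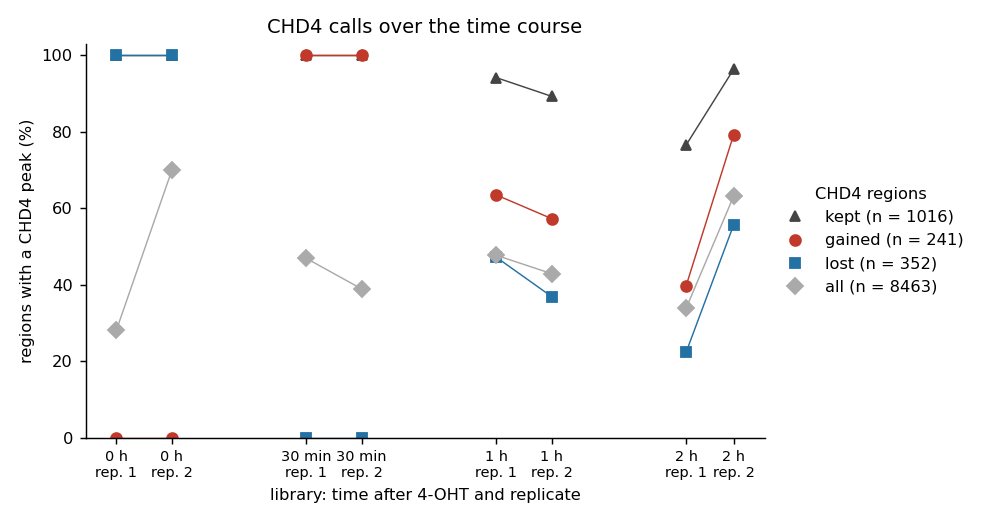
Share of CHD4 regions (%) that held a CHD4 peak in each CHD4 library, by time after 4-OHT, with replicates joined by a line. The values at 0 h and 30 min of gained, lost and kept regions are 0 or 100% by definition, and at 1 h and 2 h gained regions (red circles) lie above lost regions (blue squares) in all 4 libraries.

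The gained regions named here are those with the highest mean fold rank over the 30 min lists, and their CHD4 folds, which the choice used, are given as a description. Fold is the enrichment of the peak over the local background that was used to call it. Beside the TSS of Dusp5, which encodes a phosphatase of the MAP kinase ERK, CHD4 reached 4.66 and 4.05 (chr19:53528313-53528970). HA-Ikaros was there at 0 h, with folds of 10.1 and 7.44, and at 30 min, with 12.2 and 10.4. CHD4 was called there again in 1 h replicate 1 (5.66) and in none of the other 3 later libraries. In an intron of Cxcr4, the receptor of the chemokine CXCL12 that retains B cell precursors in bone marrow, CHD4 was 3.71 and 4.32 (chr1:128590821-128591948). HA-Ikaros there was 5.82 and 4.33 at 0 h and 7.80 and 6.71 at 30 min, and CHD4 was called in all 4 later lists, with folds from 3.13 to 3.62. The region nearest Il12a, which encodes a subunit of interleukin 12, lay 13231 bp from its TSS (chr3:68676229-68677413). CHD4 there was 4.10 and 4.17, and HA-Ikaros was 2.61 and 3.36 at 0 h and 8.48 and 6.36 at 30 min, so that the HA-Ikaros folds did not overlap between the times.

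Near Ndrg3 (chr2:156918053-156918952), the region of highest rank, CHD4 was 4.13 and 4.22 and was called in all 4 later lists. The HA-Ikaros fold there was 8.83 and 6.06 at 0 h and 13.8 and 17.1 at 30 min, without overlap. Near Lyrm9 (chr11:78820135-78820732), HA-Ikaros was listed in neither 0 h library and at 4.80 and 4.69 at 30 min, and CHD4 was 3.89 and 4.05. This was the only one of the 10 gained regions of highest rank with HA-Ikaros in both 30 min lists and neither 0 h list. Within 1 kb of a TSS, CHD4 was 4.38 and 3.83 at Slc35e4, a solute carrier, and 3.64 and 4.14 at Chrac1, a histone-fold subunit of chromatin accessibility complexes. It was 4.01 and 3.83 at Smpd3, a neutral sphingomyelinase, and 3.70 and 3.84 at G2e3, a ubiquitin ligase. Slc35e4 was called in none of the 4 later CHD4 lists. The region beyond Cmtm6 lay 21856 bp from the TSS and had CHD4 folds of 3.97 and 4.42. HA-Ikaros at Chrac1 was 9.05 and 4.82 at 0 h and 5.09 and 4.69 at 30 min, and at Slc35e4 it was 9.26 and 6.35 and then 13.3 and 8.48. At G2e3 it was 6.17 and 11.2 at 0 h and 7.91 in 30 min replicate 1 alone, near Cmtm6 it was 3.67 and 6.05 and then 6.50 in replicate 1 alone, and at Smpd3 it was called in replicate 1 of each time, at 4.74 and 5.92. Of the 10 gained regions, 6 had HA-Ikaros in all 4 lists, and the folds were higher at 30 min without overlap at 4 of these and overlapped at the other 2. Of the 10 lost regions described next, 3 had HA-Ikaros in all 4 lists, and the folds were higher at 0 and lower at 2 of these. Over the whole classes, the HA-Ikaros fold was higher at 30 min without overlap at 23 of the 80 gained regions with HA-Ikaros in all 4 lists (28.8%), 6 of 80 lost regions (7.50%) and 295 of 2061 CHD4 regions (14.3%). It was lower at 10 gained (12.5%), 44 lost (55.0%) and 700 of the 2061 regions (34.0%). These counts were added after the data had been seen.

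Lost regions of highest rank were mostly distal. All 10 had an HA-Ikaros peak in both 0 h lists, as did 8 of the 10 gained regions of highest rank, against 41.5% of all regions, and their CHD4 folds at 0 h are again a description. Their HA-Ikaros folds at 0 h ranged from 4.31 at Flt3 to 20.7 at Hmga1 in replicate 1 and from 2.76 near Pacsin1 to 26.4 near Rpl3 in replicate 2, where the medians of the whole lists were 4.74 and 5.20. Near Prdm10 (chr9:31266168-31266902) CHD4 was 4.33 and 4.62 at 0 h, and HA-Ikaros was 10.9 and 12.8 at 0 h and not called at 30 min. In an intron of Atxn7l1 (chr12:33325295-33325713), a gene of the ataxin 7 family, CHD4 was 4.28 and 4.95. HA-Ikaros there was 18.5 and 22.7 at 0 h and 7.35 and 5.75 at 30 min, without overlap. In the body of Flt3 (chr5:147362137-147363620), the receptor tyrosine kinase of early lymphoid progenitors, CHD4 was 4.35 and 4.12. HA-Ikaros at Flt3 was 4.31 and 9.13 at 0 h and 5.57 and 3.80 at 30 min, which overlapped.

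At an intron of Hmga1, which encodes an architectural chromatin protein (chr17:27561934-27562749), CHD4 was 4.06 and 4.40. HA-Ikaros there was 20.7 and 22 at 0 h and was called in 30 min replicate 1 alone, at 5.41. The region 29100 bp from the TSS of Rpl3, a ribosomal protein gene, had CHD4 folds of 4.22 and 3.93 (chr15:80049035-80051381). HA-Ikaros at that place was 18.9 and 26.4 at 0 h and 5.16 in 30 min replicate 1 alone, and H3K27ac was 13.9 and 13.6 at 0 h and 5.35 and 3.95 at 30 min. In the intron of Gm47922 nearest to D10Jhu81e (chr10:78129454-78130829), H3K27ac was 15.7 and 16.2 at 0 h and 6.10 and 5.65 at 30 min. H3K27ac folds at these 2 places were lower in both 30 min libraries than in both 0 h libraries. Of the 10 lost regions, 7 had H3K27ac in all 4 lists, and the folds were lower at 30 min without overlap at 5 of these. The same held for 136 of the 321 lost regions with H3K27ac in all 4 lists (42.4%), 22 of 223 gained regions (9.87%) and 1412 of 7260 CHD4 regions in all (19.4%), while the median fold of the whole H3K27ac lists was 7.50 and 7.71 at 0 h and 5.91 and 6.61 at 30 min. In the 10, the folds overlapped at Flt3 (13.3 and 10.1 at 0 h and 23.6 and 7.35 at 30 min) and near Nek6 (12.6 and 11.0, then 14.3 and 10.9). Of the 10 gained regions, 9 had H3K27ac in all 4 lists, and the folds were lower at 30 min without overlap at 2 and higher without overlap at 0, where 49 of the 223 gained regions and 976 of the 7260 CHD4 regions (13.4%) were higher. Near Cep78, Nek6, Scn4a and Pacsin1, CHD4 folds at 0 h lay between 3.88 and 4.68. HA-Ikaros folds in different libraries are relative to the background used to call each list, and the highest fold of a list was 43.7 and 45.9 at 0 h and 22.9 and 18.1 at 30 min.

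Kept regions were compared by the rank of their CHD4 fold among the 1016. The rank was higher in both 30 min libraries than in both 0 h libraries at 193 regions (19.0%) and lower at 168 regions (16.5%). If time had no bearing on rank, the times would stand apart, in either direction, at a share of 0.333 of regions. The 2 shares together lay near that level. Ranks agreed little between libraries, with Pearson correlations across regions from 0.225 to 0.344, and the correlation within a time was 0.296 at 0 h and 0.344 at 30 min. Among the 54 kept regions without HA-Ikaros at either time, mean rank was 34.5 and 30.5 at 0 h and 22.1 and 26.6 at 30 min, with 1 region higher and 17 lower. The median change of rank over these 54 was −1.01 points, so that a part of them carried the difference of the means. Among the 38 kept regions with new HA-Ikaros, mean rank was 43.2 and 40.4 at 0 h and 46.8 and 49.3 at 30 min, with 10 higher and 6 lower. Among the 789 with HA-Ikaros already in both 0 h lists, it was 51.9 and 52.8 at 0 h and 53.1 and 52.3 at 30 min. The rank with new HA-Ikaros minus that with HA-Ikaros already at 0 h was −8.77 and −12.4 at 0 h and −6.35 and −2.97 at 30 min. That is a difference of 5.92 percentile points without overlap of the times (SD 2.57 and 2.38, n = 2 each, exact permutation p = 0.333, adjusted p = 0.556). It was 9.99 points without 0 h replicate 1, 5.54 without 0 h replicate 2, 3.95 without 30 min replicate 1 and 3.75 without 30 min replicate 2, where the times overlapped (exact permutation p = 0.667). With −log10 q of at least 2 it was 3.67 points and the times overlapped as well (exact permutation p = 1.00).

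The kept regions with the largest upward difference of rank lay in introns of Gas7, Dab2ip and Rnls, beside Bex6 and at the TSS of Cenps. At Gas7 (chr11:67587820-67589514) CHD4 fold was 3.54 and 3.0 at 0 h and 3.92 and 4.38 at 30 min. At Dab2ip, a Ras GTPase-activating protein gene (chr2:35587453-35588764), it was 2.90 and 3.22 at 0 h and 3.61 and 4.00 at 30 min. At Cenps, which encodes a centromere protein (chr4:149132528-149134016), it was 3.44 in both 0 h libraries and 4.11 and 4.34 at 30 min. Cenps was the only one of these 5 with new HA-Ikaros, at 5.65 and 5.37 in the 30 min lists and in neither 0 h list. At Bex6 the CHD4 fold was 3.73 and 3.13 at 0 h and 4.32 and 5.28 at 30 min.

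The largest downward differences of rank were at the TSSs of Fli1, Cd79b and Plekhg2 and at a pair of neighbouring regions on chromosome 15 in introns of Gm41335, whose nearest protein-coding gene is Gsdmc. At Fli1, an ETS transcription factor gene (chr9:32541710-32545087), CHD4 was 4.22 and 3.91 at 0 h and 2.77 and 3.13 at 30 min. HA-Ikaros at Fli1 was 8.91 and 10.6 at 0 h and 4.78 and 4.99 at 30 min, and CHD4 was called again in all 4 later lists at 3.33 to 3.82. At Cd79b, which encodes a signalling chain of the B cell receptor (chr11:106313658-106316042), CHD4 was 4.05 and 3.98 at 0 h and 3.05 and 3.0 at 30 min. H3K27ac at Cd79b was 17.6 and 20.1 at 0 h and 30.1 and 21.6 at 30 min. At Plekhg2 (chr7:28371627-28374682), CHD4 was 4.2 and 4.01 at 0 h and 3.13 and 3.08 at 30 min. The groups do not overlap at any of these 10 regions, as the choice of the regions requires.

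**Figure D5:**
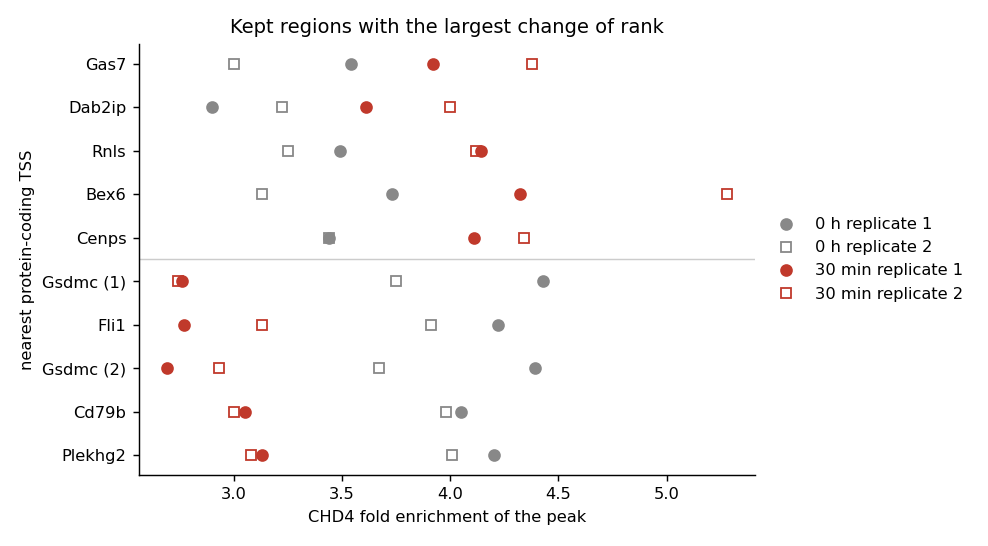
CHD4 fold enrichment (horizontal axis) in each library at the 5 kept regions with the largest upward difference of rank (above the line) and the 5 with the largest downward difference (below it), named by the nearest protein-coding TSS, with the Gsdmc pair numbered 1 and 2. Grey marks are 0 h and red marks are 30 min, and the groups stand apart at every region because the regions were chosen for it.

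Genes of known pathways were counted when a region lay within 20 kb of a TSS. Of 21911 protein-coding genes, 317 had a gained region there (1.45%), 343 a lost region (1.57%) and 883 a kept region (4.03%). A CHD4 region of any combination of libraries lay there for 5667 of them. Among 20 fast-repressed genes that the study's text names, which were chosen on RNA of the same cell system and are not independent of it, 0 had a gained region, 2 a lost region (Ccnb1 and Plekho2) and 12 a kept region. A CHD4 region of any combination lay within that distance of 18 of the 20. Kept regions lay at Igll1 and Vpreb1, the surrogate light chain genes, with CHD4 folds from 3.58 to 3.93 at the Igll1 TSS (chr16:16863792-16867525). These 2 genes are neighbours and were counted for the same kept regions. Kept regions also lay at the TSS of Ccnd2, a D-type cyclin, with 4.2 and 3.19 at 0 h and 3.27 and 3.51 at 30 min, and near Itga5, the fibronectin receptor subunit, with 3.86 and 4.24 at 0 h and 3.16 and 3.46 at 30 min. At Myc, CHD4 was called in 0 h replicate 2 (3.39) and in both 30 min libraries (3.13 and 3.48) and not in 0 h replicate 1. The remaining members with a kept region were Endod1, Serpinf1, Gins2, Hs3st3b1, Gfra2, Lrrfip1 and Lgals9, together with Plekho2, which also had a lost one. Dntt, Ccnd1, Ramp1 and Bcl11a had regions of other combinations alone, and Hs3st2 and Espnl had none. Among the lists below, any CHD4 region lay near 14 of 22 cell cycle regulators and 8 of 12 IL-7 pathway genes. The same held for 22 of 23 pre-B receptor signalling genes and 21 of 24 B-lineage transcription factors. These lists thus lay near CHD4 regions of any kind more often than all genes did. No count of a single class was tested against that level.

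At Ccnb1, which encodes the mitotic cyclin B1, the lost region lay 13 bp from the TSS (chr13:100786583-100787205), with CHD4 at 3.20 and 3.85 at 0 h. HA-Ikaros stayed called at Ccnb1, at 2.73 and 5.82 at 0 h and 6.31 and 4.15 at 30 min. CHD4 was called there again in 3 of the 4 later lists. At Plekho2 the lost region was intronic (chr9:65574681-65576003), with CHD4 at 3.50 and 3.47, and it was called again in 2 h replicate 2 alone (3.25).

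Of 22 cell cycle regulators, 4 had a gained region and 1 a lost region. Gained regions lay near Cdkn1b, Cdkn2d and Cdkn1a, which encode inhibitors of cyclin-dependent kinases, and near Ccnd3, the D-type cyclin of pre-B cell proliferation. The region near Cdkn2d (chr9:21288027-21289104) lay 2049 bp from its TSS and 58 bp from the nearest TSS, and its nearest coding gene was Kri1. CHD4 there was 4.17 and 3.04 at 30 min, and HA-Ikaros was 13.9 and 9.15 at 0 h and 20.5 and 7.81 at 30 min. Near Cdkn1b (chr6:134926877-134928501) CHD4 was 3.46 and 3.29, and HA-Ikaros was 3.88 in 0 h replicate 1 alone and 8.88 and 4.38 at 30 min. Both places were called for CHD4 in all 4 later lists. In Ccnd3 (chr17:47507847-47509367) CHD4 was 2.97 and 3.45 and was also called in all 4 later lists. The Cdkn1a region lay 19466 bp from the TSS and held no HA-Ikaros peak at either time. CHD4 there was 2.76 and 3.45 at 30 min, and no later CHD4 list called it.

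In the IL-7 receptor and STAT5 pathway, which drives pre-B cell proliferation, 3 of 12 genes had a lost region and 1 a gained region. The lost region at the TSS of Stat5b also lay within 20 kb of Stat5a (chr11:100850720-100851425). CHD4 there was 3.53 and 3.20 at 0 h, HA-Ikaros was 3.45 and 3.70 at 0 h and not called at 30 min, and no later CHD4 list called the region. At Jak1, a lost region (chr4:101252647-101254110) and a gained region (chr4:101254133-101254988) lay side by side, the only such pair within 1 kb of each other, so that adjoining peaks were counted once in each class. The lost region was called again at 1 h (3.26 and 3.13) and at 2 h (2.76 and 2.98).

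In pre-B receptor signalling, 1 of 23 genes had a gained region (Pik3cd) and 2 a lost region (Lyn and Inpp5d), and 14 had a kept region. In an intron of Pik3cd, the delta isoform of the PI3-kinase catalytic subunit (chr4:149665094-149665875), CHD4 was 3.21 and 3.81 at 30 min. HA-Ikaros there was called in neither 0 h list and at 4.80 and 6.37 at 30 min. In Lyn, a Src family kinase (chr4:3681301-3683325), the lost region had CHD4 at 3.55 and 4.00 at 0 h, and HA-Ikaros at 9.05 and 12.4 at 0 h and 6.15 in 30 min replicate 1 alone. CHD4 was called there again in both 1 h libraries (3.23 and 3.36) and in 2 h replicate 2 (3.14). A kept region lay beside it at the Lyn TSS (chr4:3678045-3680435). The Inpp5d region was called again in 2 h replicate 2 alone (2.97). Among 24 B-lineage transcription factors, 0 had a gained region, 12 had a kept region and 1, Gfi1, had a lost region. The Gfi1 region overlapped the TSS (chr5:107725522-107726593), had CHD4 at 3.75 and 3.54 at 0 h and held no HA-Ikaros peak at either time. CHD4 was called there again in 1 h replicate 2 (3.61) and in both 2 h libraries (3.23 and 3.22).

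Of 15 adhesion and integrin genes, 0 had a gained region and 2 a lost region, Itgal and Pxn. At Itgal, the alpha subunit of LFA-1, CHD4 was 3.16 and 4.05 at 0 h, and HA-Ikaros was 9.0 and 13.8 at 0 h and 6.46 in 30 min replicate 1 alone. Of 14 NuRD subunit genes, 1 had a gained region, Gatad2a, with CHD4 at 3.37 and 3.44 (chr8:70001209-70003042). Of 30 cytosolic ribosomal protein genes, 1 had a gained region (Rpl18, whose region overlapped a TSS and lay nearest to Dbp) and 0 a lost one. The list does not hold all such genes, and outside it a gained region lay 195 bp from the coding TSS of Rps3a1 and lost regions lay 190 bp from that of Rpl14 and 14457 bp from that of Rpl38. The 5 Ikaros family genes, 12 apoptosis regulators of the BCL2 family and 15 immediate early genes had neither gained nor lost regions within 20 kb of a TSS, and kept regions lay within that distance of 2, 2 and 4 of them. Over all gene lists, 12 lost and 2 gained regions lay farther than 20 kb from the listed gene whose coding TSS was nearest, and were not counted for it. The lost ones were nearest to Ikzf1, the Ikaros gene itself (2 regions), Egr1 (2 regions), Egr2, Bcl2, Myb, Mef2c, Rpl3, Vav2, Jak1 and Ccnd2, and the gained ones to Hs3st3b1 and Plcg2. Those of Ikzf1 were intronic (chr11:11655138-11657751 and chr11:11658969-11659470), 27252 and 25533 bp from its TSS, with CHD4 at 3.56 and 3.40 and at 3.57 and 3.81 at 0 h, and both held HA-Ikaros in both 0 h lists. Regions beyond 20 kb, and ribosomal protein genes outside the list, were looked up after the values had been seen. Regions within 20 kb of a gene were assigned by distance alone.

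Base composition and short words were compared in windows of 200 bp at the centre of each region, on both strands. Mean GC content was 49.9% in gained, 50.8% in lost, 50.3% in kept and 50.2% in all regions, with an SD from 8.10 to 9.76 points within each class. The Ikaros core GGGAA was present in 47.3% of gained, 52.6% of lost and 49.5% of kept regions and in 4235 of all 8463. The longer TGGGAA, which contains it, was present in 21.2, 21.9, 19.1 and 19.4%. The ETS-like word GGAAGT was present in 19.1% of gained, 18.5% of lost, 18.0% of kept and 19.0% of all regions. The RUNX-like word TGTGGT was present in 20.3, 22.7, 21.1 and 18.0%, and the E-box CAGCTG in 13.7, 17.6, 15.8 and 13.1%. GGGCGG, the GC box of CpG-rich promoters, was present in 14.1% of gained, 7.95% of lost, 9.74% of kept and 12.0% of all regions. Among distal regions alone, GGGCGG was present in 8.76% of gained, 2.90% of lost and 6.84% of kept regions, against 5.04% of all distal regions. In the same regions GGGAA was present in 48.2% of gained, 56.4% of lost and 46.3% of kept regions, against 49.1% of all distal regions. A match is a match of letters in the window, and no match does not bear on binding.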

How the data were processed

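Peak lists of HA-Ikaros, CHD4 and H3K27ac ChIP-seq from B3 cells at 0 h, 30 min, 1 h and 2 h were used, 1 list per library and 24 in all. Cells were fixed with DSG and formaldehyde, and chromatin was cut by sonication or MNase. Per the labels, the authors used Bowtie2 2.4.2, Picard 2.23.7, MACS2 2.2.7.1 and deepTools 3.5.0 on mm10. CHD4 was called in broad mode, and the methods describe 0 h, 1 h and 2 h without naming 30 min. File names state that peaks were called with input, and which input library was taken is not given in the sources used here. The deposited lists hold the fold over local background (a ratio) of each peak with its −log10 p, its −log10 q and a display score that was not used. They hold no counts of reads, so no count model was run, and depth of the CHD4 libraries is unknown. Broad peaks carry averages over a region.

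Lists were merged at an overlap of at least 1 bp. Fold was turned into a percentile rank within its list, and a region took its strongest peak. TSSs came from GENCODE M21, whose build (GRCm38, mm10) is that of the lists; sequence came from the RefSeq GRCm38.p6 assembly. Libraries were compared by exact two-sided permutation tests of 2 against 2 (Benjamini-Hochberg over 10 tests), and shares of regions carry exact binomial 95% intervals. The labels do not say whether replicates were separate cultures, so p-values cover the spread between these libraries. The class rule was tested on simulated lists. Alternatives were −log10 q of at least 2, fold of at least 3, an overlap of 50% of the shorter interval, lists of equal size, stitching within 1 kb, promoters within 3 kb, each library left out and a replicate block. Named regions were the 10 gained and 10 lost of highest mean fold rank, the 5 highest gained ones within 1 kb of a TSS, the 5 kept regions with the largest rise and the 5 with the largest fall of rank among those whose times did not overlap, and genes of the lists with a gained or lost region within 20 kb, with all fast-repressed genes. The classes, gene lists and markers were chosen with earlier results of these data known. Analyses used Python 3.11.15, pandas 2.3.3, numpy 2.4.6 and scipy 1.17.1.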

Additional observations from a re-analysis of the deposited data

How the results depend on the processing

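Over 17 results, 123 of 161 alternative values kept the direction of the reported value and, for counts and shares, stayed within 1.5 times the count or within the 95% interval of the share. The others follow, and the cause was not tested except where fewer libraries define a class. With −log10 q of at least 2, lost regions numbered 183 and kept regions 315, the share with HA-Ikaros in both 30 min lists was 75.1% for gained and 48.6% for lost regions, and 36.4% of gained regions were at promoters. With a fold of at least 3, 84.2% of kept regions held HA-Ikaros. With lists of equal size, kept regions numbered 433 and the HA-Ikaros shares of gained, lost and kept regions were 69.9, 37.3 and 87.3%. With HA-Ikaros in at least 1 of the 30 min lists they were 83.0, 63.6 and 92.6%, and with promoters within 3 kb, 58.1% of gained regions were promoters. The 30 min minus 0 h difference in peak number turned from −519 to 17.5 at −log10 q of at least 2 and to 1237 without 0 h replicate 2. That of median width turned from −8.00 bp to 4.50 bp at a fold of at least 3, to 92.5 bp without 0 h replicate 2 and to 1.5 bp without 30 min replicate 1. That of the share of CHD4 peaks at HA-Ikaros regions turned from 6.54 to −0.668 percentage points without 0 h replicate 2.

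When 1 library was left out, gained regions numbered 307 to 1346, lost regions 535 to 2816 and kept regions 1059 to 1594, because fewer lists had to agree. The lost count without 0 h replicate 1 was 2816 and without 0 h replicate 2 it was 717. The gained count was 826 without 0 h replicate 2, 1011 without 30 min replicate 1 and 1346 without 30 min replicate 2. The lost count was 677 and 535 without 30 min replicates 1 and 2, and the kept count was 1594 without 0 h replicate 1. The HA-Ikaros shares ranged from 27.2 to 63.3% for gained, 14.2 to 37.7% for lost and 71.8 to 77.7% for kept regions, and the promoter share of gained regions from 40.0 to 48.7%. Differences between times ranged from −2275 to 1237 peaks, from −108 to 92.5 bp in width, from 0.790 to 6.42 points in the promoter share, from −0.668 to 13.7 points in the share at HA-Ikaros regions, from 0.379 to 1.60 points in that at H3K27ac regions and from 3.75 to 9.99 percentile points in the rank of kept regions with new HA-Ikaros. The rank of H3K27ac at gained minus kept regions ranged from 4.37 to 5.05 points without 1 H3K27ac library, and that at gained minus lost regions from 12.1 to 13.8 without 1 H3K27ac library and from 7.21 to 11.4 without 1 CHD4 library. The share of gained minus lost regions with HA-Ikaros ranged from 35.6 to 42.0 points without 1 HA-Ikaros library and from 21.9 to 29.8 without 1 CHD4 library, and that of new minus absent HA-Ikaros regions with CHD4 from 20.8 to 24.1 without 1 CHD4 library. Regions over 5000 bp, left out as a choice made after seeing the data, changed kept regions to 971 and no share by more than its interval.

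With the replicate number as a block, the mean of the 2 within-number differences equals the reported difference in each case (38.8 points for the share of gained minus lost regions with HA-Ikaros), with an exact sign-flip p of 0.500, the smallest it can give, or 1.00. Deviations of same-numbered libraries from their group means correlated by 0.0151 over 1016 kept regions, so the CHD4 ranks at kept regions showed no sign of pairing. In the H3K27ac lists replicate 1 held more peaks than replicate 2 at all 4 times, and whether the numbers pair these libraries was not tested. Read depth could not be recovered from the CHD4 lists, so how far longer lists follow from deeper libraries was not tested.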
